A study of Mus musculus with 6 samples.

Results

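Antiviral interferon-stimulated genes were followed in mouse acute lymphoblastic leukaemia driven by BCR-ABL1, with the enzyme activation-induced cytidine deaminase (AID) either present or deleted. The set was a list of 37 gene symbols. A gene was measured where at least 1 probe set of the array was annotated to that symbol alone, and of several such probe sets the brightest on average across the 6 arrays stood for it. This gave 35 measured genes of 18193 in all. Isg15, whose probe set carried a further gene symbol, and Ifi44 were not analysed here. The list was drawn up by gene name, with earlier results of these data already known, so it is not independent of them.

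The arrays comprised 3 AID-/- leukaemias, which lack the deaminase, and 3 AID+/+ leukaemias, which carry it, all labelled as Balb/c leukaemia cells. BCR-ABL1, a constitutively active tyrosine kinase made by a chromosomal fusion, was shared by both groups. RNA came from leukaemia cells, and the labels give neither the age or sex of the animals nor how the cells were grown. They call the arrays biological replicates without saying whether these were separate animals, so p-values measure the spread between the samples, which may be partly technical. Levels are deposited log2 values, on which a difference of 1 is a doubling, and differences are AID-/- minus AID+/+. A gene was called at a Benjamini-Hochberg adjusted p under 0.05, taken over all 18193 genes of a limma fit.

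Type I interferons are secreted when cells sense foreign or misplaced nucleic acids. Type I interferons signal through a receptor with the kinases JAK1 and TYK2 to a complex of STAT proteins and IRF9, which binds the interferon-stimulated response element (ISRE). Interferon gamma signals through its own receptor to STAT dimers that bind the gamma-activated site (GAS). The induced genes encode RNA and DNA sensors, proteins that block viral replication, and brakes on the pathway.

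Values of all arrays lay between 2.15 and 14.33, array medians lay between 4.85 and 4.90, and the median probe set had a mean of 4.89. Array profiles correlated at 0.991 to 0.994 within AID-/-, 0.995 to 0.996 within AID+/+ and 0.972 to 0.977 between groups (Pearson's r over probe sets). Xist averaged 5.30 ± 0.86 over the AID-/- arrays and 12.01 ± 0.14 over the AID+/+ arrays, and the Y-linked gene Kdm5d 7.66 ± 0.06 over the AID-/- arrays and 2.58 ± 0.14 over the AID+/+ arrays (SD, n = 3 each). Sex and genotype therefore cannot be told apart in any value given here. The AID transcript was not analysed here, and the genotypes rest on the labels. Markers of B-lineage leukaemia, among them Vpreb1, Igll1 and Cd79a, had a mean level of 11.53 to 11.70 in AID-/- arrays and 11.19 to 11.39 in AID+/+ arrays (7 of 8 listed genes measured). Of these 7, limma called Blnk, an adaptor of pre-B cell receptor signalling, higher by 2.09, and did not call the other 6, beside 9.93% of all genes called higher. The dimmest of the 7, Pax5, was at 8.02, 6.77 and 7.84 in AID-/- replicates 1, 2 and 3, against 8.13, 7.74 and 7.88 in AID+/+ arrays.

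Many of these genes were higher in AID-/- leukaemia, led at the probe sets used by Rtp4, Usp18, Zbp1 and Ifih1, and none passed the test in the other direction. Of the 35 members, 18 were called higher (51.4%), 0 were called lower and 17 were not called, beside 9.93% of all genes called higher and 8.21% called lower. At an unadjusted p under 0.05, limma found 23 members higher and 0 lower, beside 15.1% of all genes higher and 14.9% lower. The median difference of the members was 0.66, against -0.03 for all genes, and single members ranged from -0.41 for Bst2 to 3.71 for Rtp4. In 24 members all 3 AID-/- arrays lay above all 3 AID+/+ arrays, as in 17.5% of all genes. Since RNA came from whole cell samples, more cells with a transcript and more of it per cell cannot be told apart. Without AID-/- replicate 2 the median difference was 0.42 and 18 members were called, beside 8.33% of all genes, 17 of them shared with the fit on all arrays. Without limma's variance moderation 5 members passed, beside 5.01% of all genes, and 4 of them were shared with the moderated fit on all arrays. The remaining 1, Cxcl10, was not called with moderation.

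**Figure D1:**
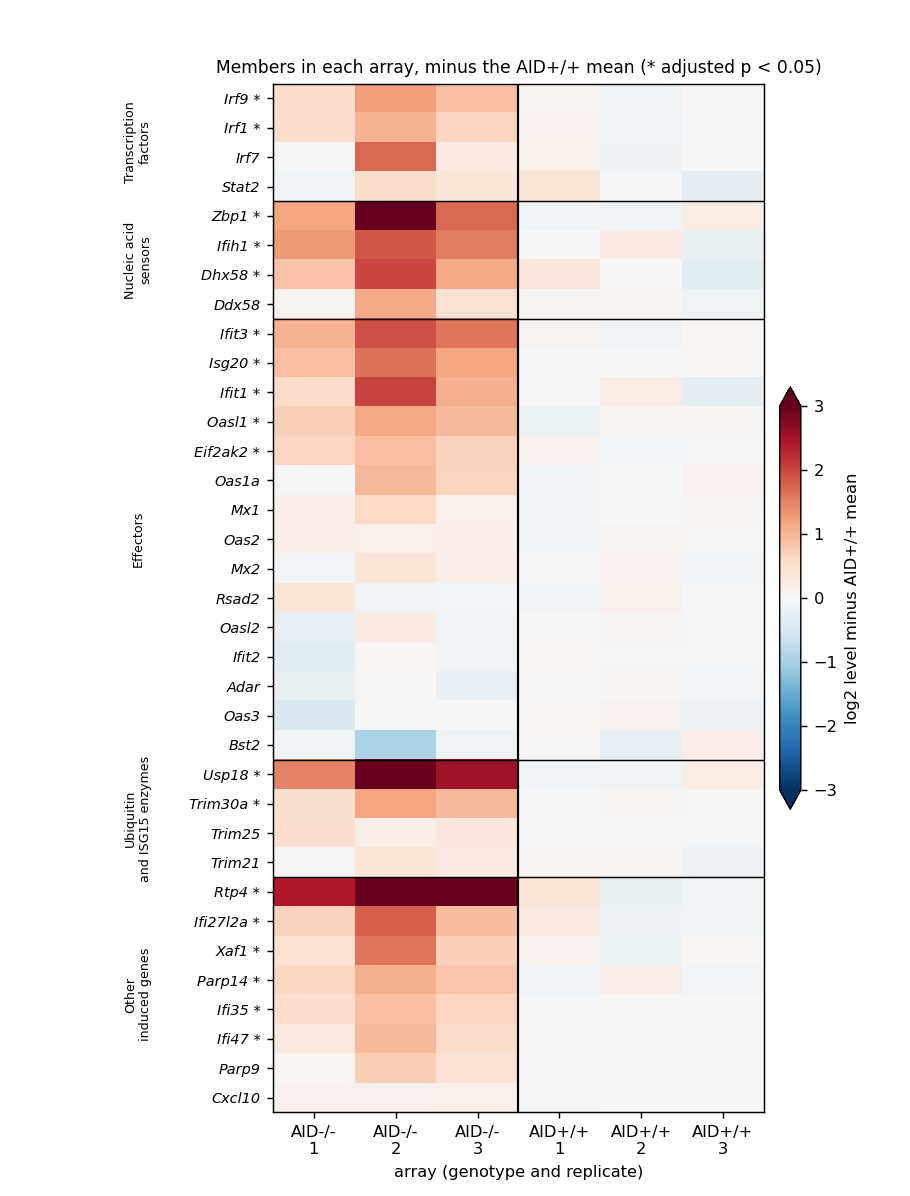
Level of each of the 35 members in each array minus its mean in the AID+/+ arrays (log2 colour scale, cut at 3 in either direction), grouped by role and sorted by difference; an asterisk marks an adjusted p under 0.05. The 18 called members are above the AID+/+ mean in all 3 AID-/- arrays and most strongly in replicate 2, while Bst2 is lowest there.

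Among the 4 transcription factors, 2 were called higher, beside 9.93% of all genes. Irf9, the DNA-binding subunit of the ISRE-binding complex, stood at 7.64, 8.37 and 8.01 in AID-/- replicates 1, 2 and 3, against 7.21, 6.97 and 7.14 in the AID+/+ arrays. The groups did not overlap, and Irf9 was higher by 0.90 (SE 0.17, adjusted p = 0.00850), or 1.87-fold. Irf1, an activator that interferon gamma induces through a GAS, had levels of 8.72, 9.22 and 8.87 in AID-/- leukaemia, against 8.33, 8.10 and 8.15 in AID+/+ leukaemia. It was higher by 0.75 (SE 0.14, adjusted p = 0.00772), and its lowest AID-/- array was still above its highest AID+/+ array.

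The other factors were not called. Irf7, which amplifies interferon alpha production, was at 4.07, 5.82 and 4.35 in AID-/- arrays, against 4.25, 3.92 and 4.10 in AID+/+ arrays. Its difference of 0.66 (SE 0.39, adjusted p = 0.316) rested on AID-/- replicate 2, and the other AID-/- levels lay close to those of the AID+/+ group, below the median probe set. Stat2, the STAT partner of IRF9, averaged 7.41 ± 0.34 in AID-/- and 7.15 ± 0.33 in the AID+/+ arrays (SD, n = 3 each). Its groups overlapped, and it was not called (adjusted p = 0.466).

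All 4 nucleic acid sensors had higher means in AID-/- leukaemia and groups that did not overlap, and 3 were called. Of all genes, 17.5% had all 3 AID-/- arrays above all 3 AID+/+ arrays, and 9.93% were called higher. Ifih1, which encodes MDA5, a cytosolic sensor of long double-stranded RNA, was at 6.02, 6.63 and 6.28 in AID-/- arrays, against 4.74, 4.99 and 4.53 in AID+/+ arrays. It had the smallest p of the members, with a difference of 1.56 (SE 0.17, adjusted p = 0.000626), or 2.94-fold. Zbp1, a sensor of Z-form nucleic acids that can trigger necroptosis, reached 6.63, 8.64 and 7.18 in AID-/- leukaemia, against 5.32, 5.36 and 5.69 in AID+/+ leukaemia. Its AID-/- arrays spread over about 2 log2 units, and it was higher by 2.02 (SE 0.43, adjusted p = 0.0131). Without AID+/+ replicate 1 the call on Zbp1 was lost (adjusted p = 0.0536), and at its other probe set the difference was 0.81, not called. That other probe set averaged 6.33 in AID-/- and 5.52 in AID+/+ arrays, against 7.48 and 5.46 at the one used. Only the AID-/- levels made the one used the brighter, so the choice itself favoured the larger difference.

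Dhx58 and Ddx58 belong to the same helicase family as Ifih1. Dhx58, which encodes LGP2, a regulator of the other helicase sensors, was at 5.81, 6.95 and 6.12 in AID-/- arrays, against 5.29, 4.95 and 4.64 in AID+/+ arrays. It was higher by 1.33 (SE 0.28, adjusted p = 0.0127), a call lost without AID+/+ replicate 3 (adjusted p = 0.0560). Its dimmer probe sets differed by 0.73 and -0.15, with levels of 4.77 or less. Ddx58, which encodes RIG-I, the sensor of uncapped RNA ends, stood at 7.20, 8.24 and 7.54 in AID-/- leukaemia, against 7.19, 7.18 and 6.97 in AID+/+ leukaemia. AID-/- replicate 1 was level with the AID+/+ arrays, and the difference of 0.55 (SE 0.23) was not called (adjusted p = 0.157). The other probe sets of Ddx58 differed by 0.31 and -0.05. Without AID-/- replicate 1, Ddx58, Oas1a and Parp9 were called as well, which made 21 members, beside 9.87% of all genes.

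**Figure D2:**
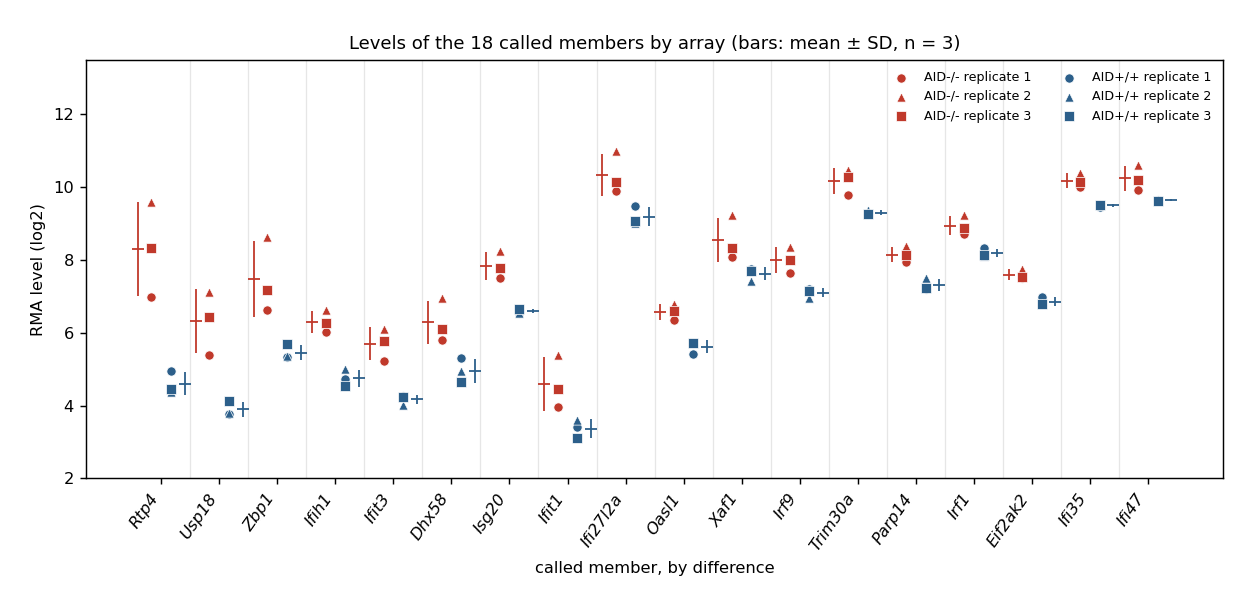
Levels on the log2 scale of the 18 members called higher, ordered by difference, with 1 symbol per array (red AID-/-, blue AID+/+) and a bar for the mean ± SD of 3 arrays beside each group. Every red symbol lies above every blue symbol of the same gene, and AID-/- replicate 2 (red triangle) is the highest array of each.

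Antiviral effectors were divided, with 5 of 15 called higher and 0 lower, beside 9.93% and 8.21% of all genes. Ifit3, an RNA-binding antiviral adaptor, was at 5.21, 6.11 and 5.79 in AID-/- arrays, against 4.27, 4.02 and 4.23 in AID+/+ arrays. Its difference was 1.53 (SE 0.21, adjusted p = 0.00158), or 2.89-fold. Ifit1, which binds foreign RNA at its 5′ end, had levels of 3.95, 5.40 and 4.45 in AID-/- leukaemia, against 3.40, 3.60 and 3.10 in AID+/+ leukaemia. It was higher by 1.23 (SE 0.32, adjusted p = 0.0309), but mostly below the median probe set, and it did not pass when AID-/- replicate 3 or any of the AID+/+ arrays was omitted, with adjusted p reaching 0.115. Ifit2, the direct neighbour of Ifit3 in the same cluster on chromosome 19, was at 7.84, 8.25 and 8.08 in AID-/- arrays, against 8.25, 8.16 and 8.16 in AID+/+ arrays. The groups overlapped and Ifit2 was not called (difference -0.13, SE 0.12, adjusted p = 0.512). The mouse cluster holds Ifit3b and further Ifit1-like genes between Ifit3 and Ifit1, and whether the probe sets tell these copies apart was not tested.

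Isg20, an exonuclease that degrades single-stranded RNA, had levels of 7.50, 8.24 and 7.77 in AID-/- leukaemia, against 6.55, 6.56 and 6.65 in AID+/+ leukaemia, a difference of 1.25 (SE 0.17, adjusted p = 0.00174). Eif2ak2 encodes PKR, the kinase that halts translation on double-stranded RNA. It stood at 7.50, 7.76 and 7.54 in AID-/- arrays, against 6.99, 6.78 and 6.79 in AID+/+ arrays, and was higher by 0.74 (SE 0.11, adjusted p = 0.00238). Its other probe sets differed by 0.88 and 0.56, in the same direction.

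Oligoadenylate synthetases make the messenger that activates RNase L, and their family includes the synthetase-like genes Oasl1 and Oasl2. Of its 5 measured genes, 1 was called, the synthetase-like Oasl1, beside 9.93% of all genes called higher. A count this small says little about the family. Oasl1, known in mouse as a brake on Irf7 translation, was at 6.34, 6.78 and 6.59 in AID-/- arrays, against 5.43, 5.73 and 5.71 in AID+/+ arrays. It was the called member of the family, higher by 0.95 (SE 0.14, adjusted p = 0.00231). Its direct neighbour on chromosome 5, Oasl2, lay near the floor of the table. Its levels averaged 2.97 ± 0.26 for AID-/- and 3.01 ± 0.07 for AID+/+ leukaemia (SD, n = 3 each), without a call (adjusted p = 0.889). Oas1a had levels of 6.97, 7.99 and 7.66 in AID-/- leukaemia, against 6.87, 7.01 and 7.12 in AID+/+ leukaemia. AID-/- replicate 1 lay within the AID+/+ range, so the groups overlapped, and the difference of 0.54 (SE 0.23) was not called (adjusted p = 0.156). Oas2 and Oas3, adjacent genes of the same cluster, differed by 0.19 and -0.18 and were not called (adjusted p = 0.215 and 0.443). Oas3, like Oasl2, lay below the median probe set, with means of 3.47 in AID-/- and 3.65 in AID+/+ leukaemia, so that a difference may not show there. Differences between members of the family were not tested.

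The remaining effectors were not called. Bst2, which encodes tetherin, the protein that holds budding virions at the cell surface, had the lowest difference of all members. It was at 6.97, 6.14 and 6.93 in AID-/- arrays, against 7.13, 6.86 and 7.29 in AID+/+ arrays, and differed by -0.41 (SE 0.22, adjusted p = 0.265). AID-/- replicate 2, the highest AID-/- array in 30 of the 35 members, was the lowest of all 6 for Bst2. Adar, the RNA-editing enzyme, stood at 8.79, 9.05 and 8.77 in AID-/- leukaemia, against 9.03, 9.09 and 8.92 in AID+/+ leukaemia, and its 3 probe sets differed by -0.14, -0.12 and 0.32, none of them called. Rsad2, which encodes viperin, was at 5.49, 5.01 and 5.03 in AID-/- arrays, against 5.01, 5.27 and 5.07 in AID+/+ arrays. Its probe sets differed by 0.06, -0.23 and -0.16 and were not called. The dynamin-like GTPase genes Mx1, below the median probe set, and Mx2, close to it, had means of 3.68 and 5.07 in AID-/- and 3.37 and 4.91 in AID+/+ leukaemia, and neither was called (adjusted p = 0.155 and 0.479).

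Enzymes of the ubiquitin and ISG15 systems included 2 called members of 4 measured, beside 9.93% of all genes called higher. Usp18, the protease that removes ISG15 from proteins and blocks the type I interferon receptor, was at 5.39, 7.13 and 6.44 in AID-/- arrays, against 3.77, 3.80 and 4.14 in AID+/+ arrays. The groups were apart by more than 1 log2 unit, and Usp18 was higher by 2.42 (SE 0.37, adjusted p = 0.00280), or 5.35-fold. Trim30a, known in mouse as a restraint on Toll-like receptor signalling, had levels of 9.79, 10.48 and 10.27 in AID-/- leukaemia, against 9.26, 9.37 and 9.27 in AID+/+ leukaemia. It was higher by 0.88 (SE 0.17, adjusted p = 0.00768), with 0.90 at its other probe set.

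Trim25, a ubiquitin ligase that acts on RIG-I, narrowly missed the threshold. It was at 10.64, 10.34 and 10.49 in AID-/- arrays, against 10.16, 10.16 and 10.11 in AID+/+ arrays, with a difference of 0.35 (SE 0.10, adjusted p = 0.0508). Unlike the called members, it was highest in AID-/- replicate 1 and lowest in replicate 2. Its other probe sets differed by 0.32 and -0.17. Trim25 was called higher under 6 of 11 other settings and in 1 of 6 fits with an array omitted, that without AID-/- replicate 2. Trim21, an antibody receptor of the cytosol with ligase activity, averaged 7.91 ± 0.17 in AID-/- and 7.69 ± 0.15 in the AID+/+ arrays (SD, n = 3 each). It was not called (adjusted p = 0.257).

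Of 8 further induced genes, 6 were called higher, beside 9.93% of all genes. In all 8 every AID-/- array lay above every AID+/+ array, as in 17.5% of all genes. Rtp4, a chaperone for cell surface receptors, had the largest difference of the members. It was at 6.99, 9.59 and 8.34 in AID-/- arrays, against 4.96, 4.37 and 4.46 in AID+/+ arrays, a difference of 3.71 (SE 0.54, adjusted p = 0.00231), or 13.1-fold. Within AID-/- leukaemia, replicate 2 was 6.05-fold above replicate 1. Its other probe set lay near the floor, with levels of 3.79 or less, and differed by 0.26 without a call.

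The bright members of this group differed by less. Ifi35, a leucine zipper protein, stood at 10.01, 10.40 and 10.14 in AID-/- leukaemia, against 9.46, 9.53 and 9.52 in AID+/+ leukaemia, and was higher by 0.68 (SE 0.11, adjusted p = 0.00435), with 0.83 and 0.71 at its other probe sets. Parp14, an ADP-ribosyltransferase, was at 7.94, 8.37 and 8.14 in AID-/- arrays, against 7.20, 7.51 and 7.23 in AID+/+ arrays, and was higher by 0.84 (SE 0.14, adjusted p = 0.00402). At its dimmer probe set the difference was 0.46, not called. Parp9, which lies beside it on chromosome 16 with only Dtx3l between them, had levels of 9.18, 9.84 and 9.54 in AID-/- leukaemia, against 9.13, 9.06 and 9.16 in AID+/+ leukaemia. Parp9 was not called (difference 0.40, SE 0.16, adjusted p = 0.125), and its AID-/- replicate 1 exceeded the highest AID+/+ array by less than the spread of that group.

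The calls on 3 other genes of this group depended on single arrays. Ifi27l2a, a small interferon-inducible membrane protein gene, was at 9.89, 10.99 and 10.15 in AID-/- arrays, against 9.49, 9.01 and 9.07 in AID+/+ arrays. It was higher by 1.15 (SE 0.27, adjusted p = 0.0185), and did not pass when AID+/+ replicate 2 or 3 was omitted (highest adjusted p 0.0722). Ifi47, an interferon-inducible GTPase, averaged 10.25 ± 0.35 in AID-/- and 9.65 ± 0.03 in the AID+/+ arrays (SD, n = 3 each), with an adjusted p of 0.0348. With 1 array omitted it passed only when that array was AID-/- replicate 1 (highest adjusted p 0.110). Xaf1, an antagonist of the apoptosis inhibitor XIAP, had levels of 8.08, 9.24 and 8.33 in AID-/- leukaemia, against 7.75, 7.43 and 7.69 in AID+/+ leukaemia. It differed by 0.93 (SE 0.27, adjusted p = 0.0457), but its other probe set, near the floor, by less than 0.01. Xaf1 did not pass when AID-/- replicate 3 or any of the AID+/+ arrays was omitted (highest adjusted p 0.139), nor with the replicate number as a block (adjusted p = 0.0703). Cxcl10, a T cell-attracting chemokine and a classical interferon gamma target, was near the floor, with means of 3.60 in AID-/- and 3.46 in AID+/+ leukaemia. It was not called (adjusted p = 0.330), although a linear model without variance moderation called it higher (adjusted p = 0.0301).

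Promoters of 25 measured members were in a RefSeq table (GRCm38.p6) and were searched for the ISRE core, which is GAAA, any 2 bases and GAAA again on either strand, and for the GAS, TTCNNNGAA, which reads alike on both strands. The window was the 250 bases before each start, and overlapping matches were allowed. The ISRE core was found for 9 of the 25 members (36.0%) and for 3.46% of 27025 genes in the table, and the GAS for 6 members (24.0%) and 8.13% of genes. The ISRE core was present for 3 of 12 called members (Ifit1, Ifit3, Trim30a) and for 6 of 13 members not called (Bst2, Cxcl10, Oas1a, Oas3, Rsad2, Stat2). The called members Rtp4, Usp18, Zbp1, Parp14, Dhx58 and Ifi27l2a had no promoter entry, nor did Parp9, Mx1, Mx2 and Oas2, which were not called. The 12 are therefore only a part of the called members and leave out most of those with the largest differences. This is a description of letters in a short window, with no test. The 160 bases before the start are given here for members with and without a call, 5′ to 3′ on the gene's strand, so that the matches can be compared. Capitals mark the ISRE core, and in Irf1 the GAS. The GAS match of Oas1a is left in lower case, and that of Bst2 overlaps the first ISRE core match there, so that its last bases stand in capitals. The regions are chr19:34640729-34640888 (plus strand) for Ifit1, chr19:34583369-34583528 (plus) for Ifit3, chr11:53769854-53770013 (plus) for Irf1, chr5:120907526-120907685 (minus) for Oas1a, chr5:120777660-120777819 (minus) for Oas3 and chr8:71537473-71537632 (minus) for Bst2.
Ifit1: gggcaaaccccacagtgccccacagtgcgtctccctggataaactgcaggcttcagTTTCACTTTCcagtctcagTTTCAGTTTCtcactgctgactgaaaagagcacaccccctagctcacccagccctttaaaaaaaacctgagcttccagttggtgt
Ifit3: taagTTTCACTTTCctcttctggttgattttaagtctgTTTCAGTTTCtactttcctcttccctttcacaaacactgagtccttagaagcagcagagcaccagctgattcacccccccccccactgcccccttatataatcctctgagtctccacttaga
Irf1: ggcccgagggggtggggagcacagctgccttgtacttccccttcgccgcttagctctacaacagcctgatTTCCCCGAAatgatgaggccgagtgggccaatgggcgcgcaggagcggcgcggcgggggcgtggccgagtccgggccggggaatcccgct
Oas1a: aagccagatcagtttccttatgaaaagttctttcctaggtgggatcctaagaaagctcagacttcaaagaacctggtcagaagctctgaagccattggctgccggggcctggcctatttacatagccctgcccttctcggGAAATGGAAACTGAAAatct
Oas3: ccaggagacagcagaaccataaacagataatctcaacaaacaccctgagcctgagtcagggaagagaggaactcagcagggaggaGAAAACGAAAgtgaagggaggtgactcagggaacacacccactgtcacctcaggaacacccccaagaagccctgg
Bst2: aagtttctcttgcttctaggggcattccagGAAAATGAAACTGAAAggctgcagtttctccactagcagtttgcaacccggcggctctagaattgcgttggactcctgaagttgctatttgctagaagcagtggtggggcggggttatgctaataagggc
Ifit1 and Ifit3, both called, each carried a pair of matches on the minus strand, spelled alike in both promoters and closer together in Ifit1. Oas1a and Bst2, neither called, each carried 2 overlapping matches on the plus strand, and Oas3, not called, carried 1.

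The AID-/- arrays differed among themselves in the same order for most members. AID-/- replicate 2 was the highest AID-/- array in 30 of 35 members (85.7%), against 36.2% of all genes. The order replicate 2, then 3, then 1 held for 28 of 35 members (80.0%), against 23.0% of all genes, and for all 18 called members, against 30.8% of the 1807 genes called higher. The median distance from the AID+/+ mean over the called members was 0.67 in replicate 1, 1.63 in replicate 2 and 0.97 in replicate 3. Over the members not called it was -0.02, 0.25 and 0.20 in the same replicates. Each AID-/- array is 1 sample, so the differences between them have no test.

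**Figure D3:**
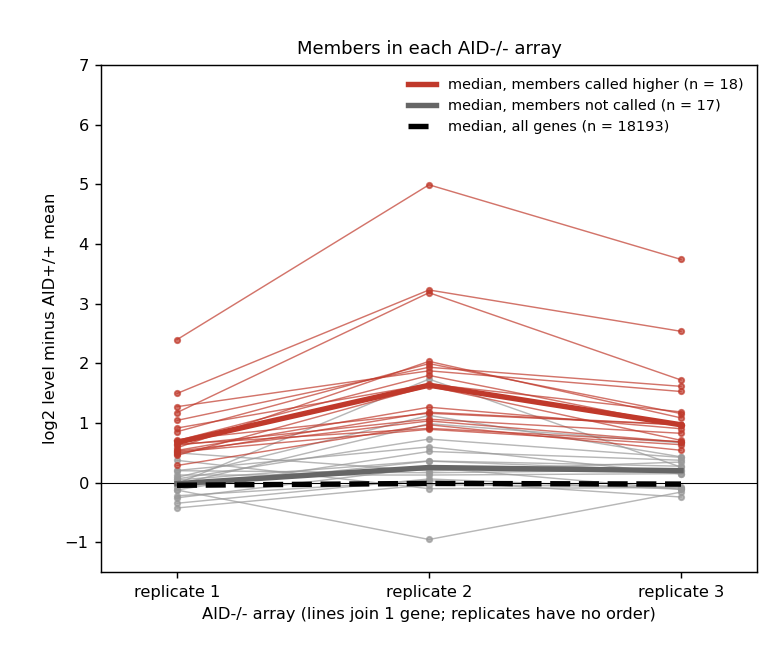
Distance of each member from its AID+/+ mean (log2) in each AID-/- array, with thin lines joining the values of 1 gene and thick lines for medians of called members, members not called and all genes. Called members peak in replicate 2 (median 1.63) while the median of all genes stays near 0 in all 3 arrays.

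The spread within groups was correspondingly unequal. The SD of the AID-/- arrays exceeded that of the AID+/+ arrays in 33 of 35 members, against 54.7% of all genes, with median SDs over the members of 0.33 in AID-/- and 0.13 in AID+/+ leukaemia. The exceptions were Oas2 and Cxcl10. Members with a wide gap between AID-/- replicates 2 and 1 also lay further above the AID+/+ mean in AID-/- replicate 3, an array that does not enter that gap. Pearson's r between these 2 differences was 0.75 and Spearman's rho 0.70 across the 35 members, against 0.20 and 0.09 across all genes. Genes within the same arrays are not independent replicates, and a wide range of any gene enters both differences. Irf7 departed from this pattern, with a gap of 1.75 between replicates 2 and 1 and a distance of 0.26 in replicate 3.

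**Figure D4:**
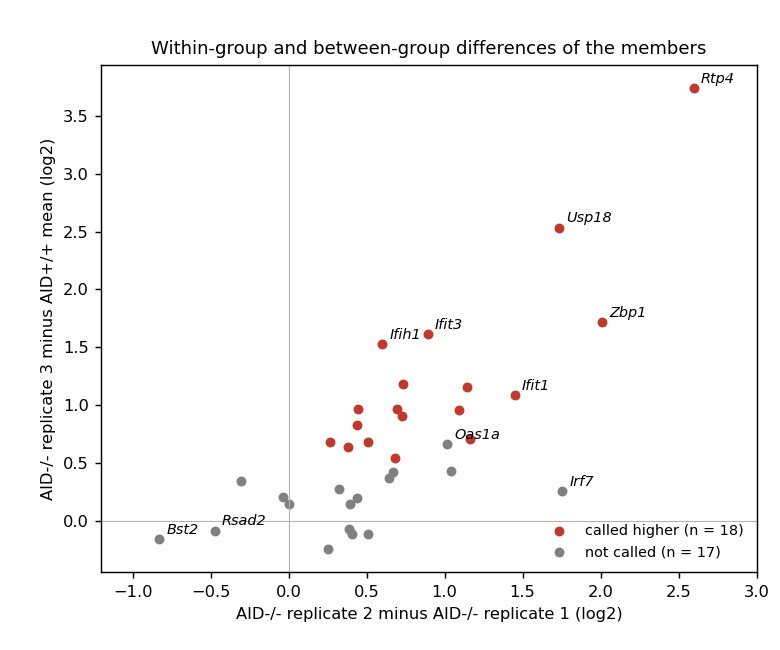
Difference between AID-/- replicates 2 and 1 (horizontal) against the distance of AID-/- replicate 3 from the AID+/+ mean (vertical), both log2, for 35 members. Rtp4, Usp18 and Zbp1 are far out on both axes, whereas Irf7 has a wide gap between replicates 2 and 1 and a level near the AID+/+ mean in replicate 3.

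None of the measured interferon genes was called higher in AID-/- leukaemia, and 7 of the 10 had means below the median probe set. Of 10 ligand genes with a value, among 19 listed, limma called 0 higher and 1 lower, with 0 higher and 2 lower at an unadjusted p under 0.05. The shares of all genes were 9.93% and 8.21% adjusted and 15.1% and 14.9% unadjusted, so counts this small say little about the list. Ifnb1, the type I interferon beta gene, was at 3.51, 3.92 and 3.68 in AID-/- arrays, against 3.60, 3.97 and 3.88 in AID+/+ arrays. Ifng, the interferon gamma gene, was at 2.50, 2.83 and 2.51 in AID-/- arrays, against 2.54, 2.81 and 2.77 in AID+/+ arrays. Both were near the floor and were not called. Ifnz, a type I interferon gene also called limitin, was the called ligand, at 6.27, 5.30 and 5.72 in AID-/- leukaemia, against 6.95, 6.91 and 6.70 in AID+/+ leukaemia. It fell by 1.09 (SE 0.22, adjusted p = 0.00995).

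Both chains of the interferon gamma receptor were higher, and these were the called members of 6 receptor genes, beside 9.93% of all genes. Ifngr2, the signalling chain, had levels of 8.02, 8.42 and 8.38 in AID-/- leukaemia, against 7.48, 7.25 and 7.27 in AID+/+ leukaemia, and was higher by 0.94 (SE 0.13, adjusted p = 0.00182). Ifngr1, the ligand-binding chain, was at 8.54, 9.28 and 9.02 in AID-/- arrays, against 8.02, 8.22 and 8.20 in AID+/+ arrays, and was higher by 0.80 (SE 0.18, adjusted p = 0.0156). Its call did not hold without AID-/- replicate 3 (nor without AID+/+ replicate 1). The type I receptor genes Ifnar1 and Ifnar2 differed by 0.24 and -0.39 and were not called (adjusted p = 0.292 and 0.126). Of the 6 receptor genes, 5 followed the replicate order 2, 3, 1 within AID-/- leukaemia.

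Among 9 downstream kinases and brakes with a value, 1 was called higher and 1 lower, about the share of all genes in each direction (9.93% and 8.21%). Socs3, a feedback inhibitor of cytokine signalling, was at 8.55, 7.57 and 7.33 in AID-/- arrays, against 6.22, 5.73 and 6.43 in AID+/+ arrays, and was higher by 1.69 (SE 0.31, adjusted p = 0.00642). Its AID-/- order differed from that of the called members, with replicate 1 highest. Ptpn6, the gene of the phosphatase SHP-1, was at 9.71, 9.23 and 9.94 in AID-/- leukaemia, against 10.74, 10.59 and 10.72 in AID+/+ leukaemia, and fell by 1.06 (SE 0.17, adjusted p = 0.00371). Jak1, Jak2 and Tyk2, the receptor-associated kinases, differed by 0.41, -0.12 and 0.02 and were not called.

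A further list held genes that induce interferon and others that act around that step without inducing it, such as Samhd1. Of its 17 genes with a value, 3 were called higher and 1 lower, beside the same 9.93% and 8.21% of all genes. Myd88, the Toll-like receptor adaptor, was even across the AID-/- arrays, at 8.49, 8.47 and 8.42, against 7.35, 7.44 and 7.28 in AID+/+ leukaemia. It was higher by 1.10 (SE 0.089, adjusted p = 0.000106). Samhd1, a nucleotide-cleaving restriction factor, was higher by 1.02 (SE 0.18, adjusted p = 0.00537), with AID-/- replicate 2 the lowest of its group at 7.72. Sting1, the adaptor downstream of the DNA sensor cGAS, was at 9.01, 9.93 and 9.39 in AID-/- arrays, against 8.84, 8.46 and 8.53 in AID+/+ arrays, in the replicate order of the called members. Its difference of 0.83 passed the test (adjusted p = 0.0319), but did not hold when AID-/- replicate 3 or AID+/+ replicate 2 or 3 was omitted. Tlr4, the lipopolysaccharide receptor, fell by 0.80 (SE 0.18, adjusted p = 0.0174), a call lost without AID+/+ replicate 2 or 3.

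**Figure D5:**
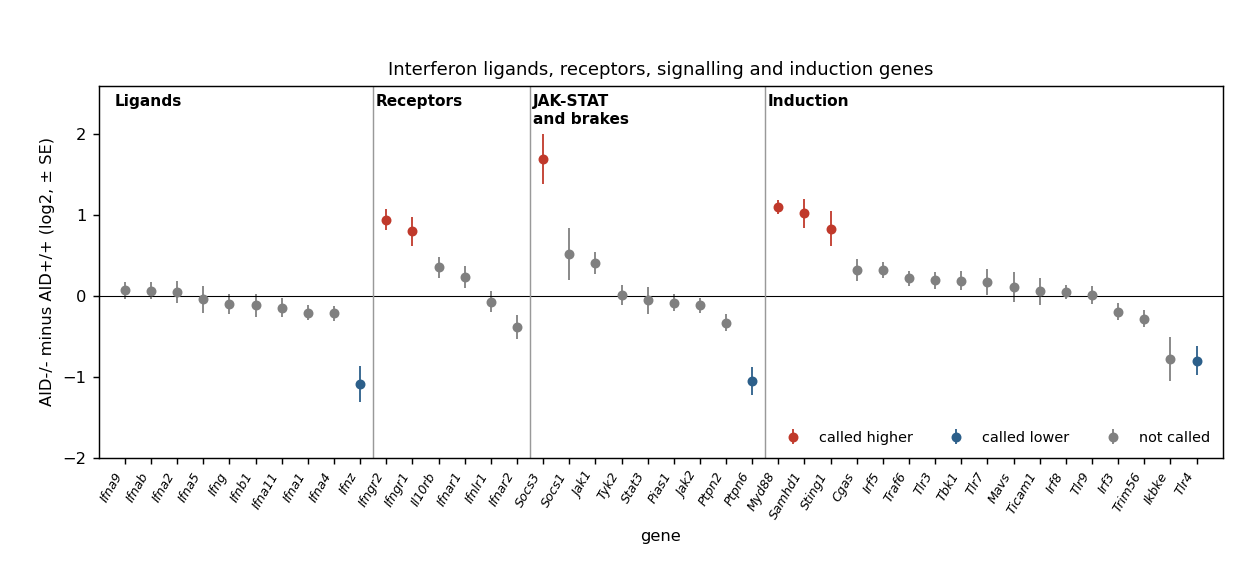
AID-/- minus AID+/+ difference (log2) with its standard error for interferon ligand, receptor, signalling and induction genes, sorted within each list (red called higher, blue called lower, grey not called). Ligand differences range from -1.09 for Ifnz, which was called lower, to 0.072, whereas Ifngr2, Ifngr1, Socs3 and Myd88 are among the higher genes.

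Markers of other cell types were measured beside these values. The 10 macrophage and monocyte markers had mean levels of 4.44 to 4.81 in AID-/- arrays and 4.69 to 4.88 in AID+/+ arrays, and 1 was called higher and 2 lower, with 2 higher and 4 lower at an unadjusted p under 0.05. Lyz2, lysozyme, was the higher one, at 5.90, 6.46 and 5.69 in AID-/- leukaemia, against 4.96, 5.33 and 5.49 in AID+/+ leukaemia, a call that held in 1 of the 6 fits with an array omitted. Mrc1 fell by 1.54 and Fcgr1 fell by 1.28 on the log2 scale, calls that held in 3 and 2 of those fits. Itgam, at 4.03, 3.64 and 5.54 in AID-/- arrays, against 3.58, 3.16 and 3.31 in AID+/+ arrays, had groups that did not overlap and was not called (adjusted p = 0.129). Csf1r, Adgre1, Cd68, Cd14, C1qa and C1qb were not called either. None of the 7 plasmacytoid dendritic cell markers, 7 neutrophil markers or 8 T and NK cell markers was called. At an unadjusted p under 0.05 limma found 0, 0 and 1 of these, the last lower in AID-/-. Their mean levels were 4.95 to 5.15, 3.84 to 3.93 and 4.33 to 4.37 in AID-/- arrays, and 5.01 to 5.10, 3.93 to 4.16 and 4.41 to 4.54 in AID+/+ arrays. Of all genes, 9.93% were called higher and 8.21% lower, with 15.1% higher and 14.9% lower at an unadjusted p under 0.05. Beside these shares, counts this small say little about any of these marker lists. The part of these cell types in the interferon-stimulated genes was not tested.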

How the data were processed

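Biotinylated cRNA was made from 6 micrograms of total RNA per sample, per the labels' protocols, and read on Affymetrix 3′ expression arrays. The authors deposited log2 expression values per probe set; RMA and Partek are the tools in the submitters' processing notes, with versions and order not given in the sources used here. No detection calls or scanner files were used, so low values cannot be called absent. Precision is limited by the number of arrays.

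Of the table's probe sets, 64 controls were left out and 45037 entered a two-sided limma test (version 3.58.1, R 4.3.3) with genotype as its single term, using lmFit followed by eBayes. The platform annotation gave 34945 of them 1 gene symbol, 932 several and 9160 none, and 34741 matched RefSeq symbols by Entrez identifier. Adjustment was by Benjamini-Hochberg over 1 probe set for each of 18193 genes. The fit was tested on simulated data with known changes. Same-numbered replicates did not deviate together (correlations of -0.05, -0.07 and 0.03), so the replicate block was an alternative only. The members, pathway lists and marker lists were chosen with earlier results of these data known. Values by array are given for the 14 called members with the smallest p, for the 5 members not called with the largest difference, for members whose probe sets disagree in sign and for some others chosen after their values were seen. From each pathway list up to 3 called genes are named by smallest p, and others named were likewise chosen after their values were seen.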

Additional observations from a re-analysis of the deposited data

How the results depend on the processing

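The count of 18 members called higher was recomputed under 11 other settings and without each array in turn. It was 17 to 19, beside 8.44% to 16.3% of all genes, under all settings except a linear model without variance moderation and the second-brightest probe set. Without moderation 5 members passed, 4 of them shared with the main fit, beside 5.01% of all genes. In all, 1635 genes were called without it, against 3301 with it. At the second-brightest probe set 14 members passed, 13 of them shared with the main fit, beside 8.37% of all genes. The 21 members with 1 probe set kept it there, so their differences could not change. Among called members with several probe sets, 5 lost the call (Dhx58, Parp14, Rtp4, Xaf1 and Zbp1), while Eif2ak2, Trim30a and Ifi35 kept it. Trim25 was gained. The 16.3% was with dim probe sets left out, where 29 members were tested and Ifit1 was not. The members left out had a mean over the 6 arrays below the median probe set, and apart from Ifit1 none was called in the main fit. Ifit3, Usp18, Rtp4 and Ifih1 had AID+/+ means below the median probe set and stayed in through their AID-/- levels. The filter therefore favoured members higher in AID-/- leukaemia, and its count adds little to the main one. Without 1 array 13 to 21 members were called, beside 6.74% to 9.87% of all genes, and 2183 to 3099 genes in all, with 2183 without AID+/+ replicate 3. The count of members called lower was 0 throughout, with 0 at an unadjusted p under 0.05 in the limma fit of all arrays. The median difference lay between 0.43 and 0.74 under other settings and between 0.42 and 0.80 without 1 array. The 0.74 was over the 29 members tested with dim probe sets left out. With the replicate number as a block 17 members and 2723 genes were called, and Xaf1 was the member lost. Moderation over genes alone, chosen after seeing the data, gave 18, with Trim25 in place of Xaf1. Trim25 was also called with median centring, dim probe sets left out, an intensity trend, array weights or the second-brightest probe set. Signs turned for Dhx58 (-0.15), Rsad2 (-0.23) and Xaf1 (-0.0048) at the second-brightest probe set, for Rsad2 (-0.11) and Adar (0.020) with probe sets averaged, and for Oasl2 and Rsad2 without AID-/- replicate 1. Without 1 array Oasl2 ranged between -0.18 and 0.070 and Rsad2 between -0.093 and 0.14. The cause was not tested. Low signal limits 6 members whose mean lay below the median probe set.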
